A study of Mus musculus with 9 samples.

Results

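The tricarboxylic acid cycle enzymes described here are 9 genes listed by symbol, by a rule that used no measured value although earlier results of these data were known: Cs, Idh3a, Idh3b, Idh3g, Ogdh, Dlst, Suclg1, Fh1 and Mdh2. All 9 were found among the 26602 genes that had a count in at least 1 library, and all 9 passed the filter on low counts. RNA came from the midbrain including the substantia nigra of 4 DJ-1+/+ mice (WT in the labels) and 5 DJ-1-/- mice (DJ-1 KO), 3 to 4 months of age. The DJ-1-/- mice carry a targeted allele of Park7 in every cell of the body, on a line backcrossed for 7 generations to C57BL/6, and DJ-1+/+ and DJ-1-/- mice were bred from heterozygous parents and shared cages. No mouse received a treatment, and the labels do not give the sex of the mice. Each library is 1 mouse and is a 3′ mRNA-seq library with unique molecular identifiers (UMIs), random tags by which PCR copies of 1 molecule are counted once. Because a read comes from the polyadenylated end of a transcript, a count does not grow with transcript length, and levels are given as counts per 1000000 UMI counts of the library (cpm) without division by length.

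The tricarboxylic acid cycle runs in the mitochondrial matrix and oxidises the acetyl group of acetyl-CoA to carbon dioxide. Its isocitrate, 2-oxoglutarate and malate dehydrogenases form NADH, which feeds the respiratory chain, while succinate dehydrogenase passes electrons through FAD to ubiquinone, and its intermediates are drawn off in brain for the synthesis of glutamate, GABA and aspartate. All 9 genes are encoded in the nucleus and their proteins are imported into mitochondria. In order of the cycle, citrate synthase (Cs) joins acetyl-CoA with oxaloacetate, the NAD-dependent isocitrate dehydrogenase is built of a catalytic alpha subunit (Idh3a) and of beta and gamma subunits (Idh3b, Idh3g), and the 2-oxoglutarate dehydrogenase complex holds the decarboxylase Ogdh and the succinyltransferase Dlst. The alpha subunit Suclg1 is common to the ATP-forming and the GTP-forming succinyl-CoA ligase, fumarase is encoded by Fh1, and the mitochondrial malate dehydrogenase by Mdh2.

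Between 841974 and 886085 molecules were counted for each DJ-1+/+ and between 967751 and 1098125 for each DJ-1-/- mouse, so every DJ-1-/- library was deeper, and 3 counts were between 2.73 and 3.56 cpm. Park7, which encodes DJ-1, was at 119 to 157 cpm in DJ-1+/+ and at 14.4 to 26.4 cpm in DJ-1-/- mice. Th, the tyrosine hydroxylase of dopaminergic neurons, had between 30 and 119 counts in each library. In DJ-1+/+ replicate 1 the cerebellar granule cell gene Gabra6 had 102 counts, against 0 to 2 in each other library, and choroid plexus markers were highest in DJ-1+/+ replicates 1 and 4. Xist had 146 to 193 counts in 6 libraries and at most 2 in the other 3 (DJ-1+/+ replicates 1 and 4, DJ-1-/- replicate 5), where the Y-linked Ddx3y had 113 to 152. The highest count of any gene in a library was between 1040 and 1359, and mt-Co1, a mitochondrially encoded respiratory chain transcript, had 340 to 417. The UMI length is not given in the sources used here. Whether it limits counts at the level of the cycle enzymes, and so narrows their levels and folds, was not tested. The 9 enzymes had between 98 and 225 counts in each library.

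Among the 9 enzymes, Idh3b was higher in DJ-1-/- than in DJ-1+/+ mice without overlap, 1.16-fold in mean cpm, and the other 8 overlapped between the genotypes. In edgeR's quasi-likelihood test, fitted over 18127 genes with no term besides genotype, 1 of the 9 enzymes passed an unadjusted p of 0.05, where 2.83% of all genes tested did. It was higher in DJ-1-/- mice, the direction of 1.57% of all genes tested, and no enzyme passed in the lower direction, that of 1.26%. After Benjamini-Hochberg adjustment over all genes no enzyme was called, each adjusted p in edgeR's test being 1 when rounded to 3 digits, and the share of all genes called was 0.00552%. By DESeq2 the unadjusted count was also 1, against 1.3% of all genes tested. The log2 fold changes (DJ-1-/- over DJ-1+/+) were positive for 4 enzymes and negative for 5, with a median of −0.05, and the median over all genes tested was 0.01. Among the 1833 genes tested whose mean cpm lay within the range of the 9 enzymes, 39 passed the same unadjusted threshold in edgeR's test, which is 2.13%. The summed level of the 9 enzymes was 1332 ± 58.4 cpm (SD) in the 4 DJ-1+/+ mice and 1320 ± 41.6 cpm (SD) in the 5 DJ-1-/- mice, a difference smaller than either SD.

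**Figure D1:**
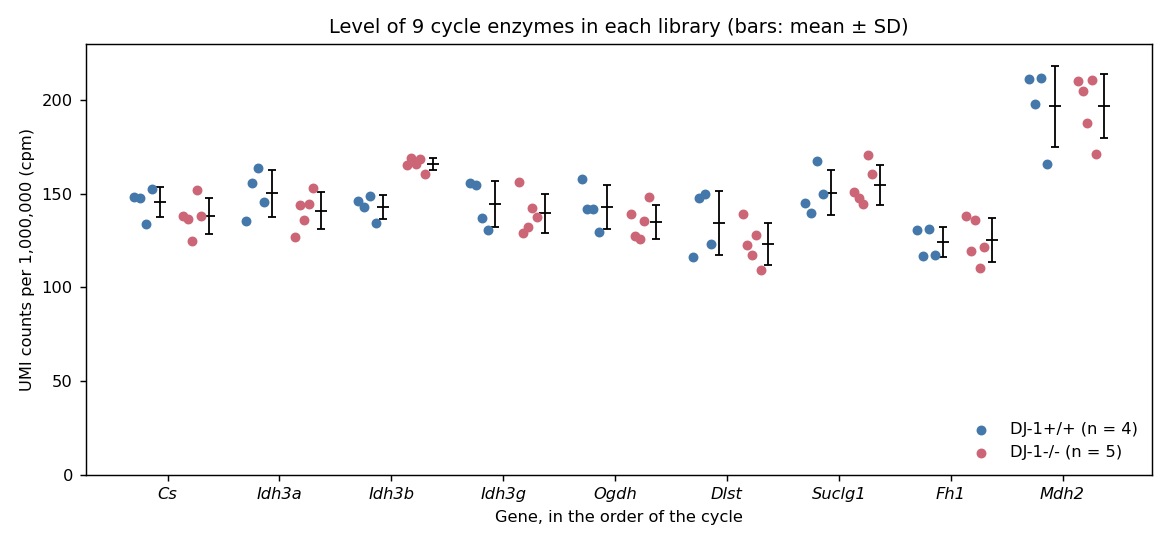
Level of each cycle enzyme as UMI counts per 1,000,000 (vertical axis, from 0) in the order of the cycle (horizontal axis). Each point is 1 library, blue for the 4 DJ-1+/+ and red for the 5 DJ-1-/- mice, and bars give the mean ± SD; Idh3b is the gene whose points do not overlap (134 to 149 against 161 to 169 cpm).

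Idh3b, the beta subunit of the NAD-dependent isocitrate dehydrogenase, lies on the minus strand at chr2:130279309-130284547 (GRCm38). Its counts were 123, 126, 128 and 119 for DJ-1+/+ and 165, 186, 161, 163 and 165 for DJ-1-/- mice. As cpm these were 146, 143, 149 and 134 in DJ-1+/+ and 165, 169, 166, 168 and 161 in DJ-1-/- mice. The highest DJ-1+/+ library thus lay below the lowest DJ-1-/- library, as in 0.662% of all genes tested, while 0.585% were lower without overlap and 1.25% lacked overlap in either direction. Its mean level was 143 ± 6.33 cpm (SD) in the 4 DJ-1+/+ mice and 166 ± 3.36 cpm (SD) in the 5 DJ-1-/- mice. An exact two-sided permutation test of the difference in mean cpm gave p = 0.0159, the smallest that 4 mice against 5 allow. Idh3b had a log2 fold change of 0.21 with a standard error of 0.07 and a 95% interval from 0.07 to 0.35, which is 1.05-fold to 1.28-fold. Its unadjusted p of 0.00818 in edgeR's test was the 49th smallest of all genes tested, with an adjusted p of 1. By DESeq2 the log2 fold change of Idh3b was 0.20 with a larger standard error, 0.10, and an unadjusted p of 0.0458. With any 1 library left out the log2 fold change ran from 0.18 to 0.23, and edgeR's unadjusted p from 0.00944 to 0.0382.

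Libraries that differed in dissection markers or in Xist were then set beside Idh3b. Without DJ-1+/+ replicates 1 and 4 together, its log2 fold change was 0.19 and the unadjusted p in edgeR's test 0.0665. The standard error in that fit was 0.09, against 0.07 with all libraries. Both of these replicates were without Xist and highest in choroid plexus markers, so Xist and dissection cannot be told apart in that fit. With all libraries and Xist (log2 cpm) as covariate, Idh3b had a log2 fold change of 0.20 (unadjusted p = 0.0187 in edgeR's test). In the 6 libraries with Xist, Idh3b was at 143 and 149 cpm in DJ-1+/+ and at 165 to 169 cpm in DJ-1-/- mice. In the 3 libraries without Xist, it was at 134 and 146 cpm in DJ-1+/+ and at 161 cpm in the DJ-1-/- mouse. Since Idh3b did not overlap over all libraries, neither set could show overlap, and these values are no further check. The 3′ end of Idh3b overlaps Nop56, a gene of the opposite strand that encodes a nucleolar protein, and the sources used here do not say whether reads were counted by strand. Nop56 was at 103 ± 19.7 cpm (SD) in the 4 DJ-1+/+ mice and 104 ± 10.3 cpm (SD) in the 5 DJ-1-/- mice (log2 fold change 0.01, standard error 0.12).

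The catalytic subunit gene Idh3a lies on the plus strand at chr9:54586334-54604661. It was at 135, 156, 164 and 146 cpm in the DJ-1+/+ mice and at 127, 144, 136, 145 and 153 cpm in the DJ-1-/- mice. The lowest library belonged to DJ-1-/- and the highest to DJ-1+/+, and the genotypes overlapped. The mean was 150 ± 12.4 cpm (SD) over the 4 DJ-1+/+ mice and 141 ± 9.77 cpm (SD) over the 5 DJ-1-/- mice, which is less apart than 1 SD. Idh3a had a log2 fold change of −0.09 with a standard error of 0.08 (unadjusted p = 0.276 in edgeR's test).

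Idh3g, which encodes the gamma subunit, is the X-linked member, on the minus strand at chrX:73778963-73786897. It was at 156, 155, 137 and 131 cpm in DJ-1+/+ and at 156, 129, 132, 143 and 137 cpm in DJ-1-/- mice. Both genotypes covered nearly the same range. The log2 fold change of Idh3g was −0.05 with a standard error of 0.08. Libraries with Xist held 137 to 155 cpm of Idh3g (DJ-1+/+) and 129 to 156 cpm (DJ-1-/-), and those without Xist, at 131 to 156 cpm, lay over the same levels.

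The subunits of an enzyme can be compared within a library, since a ratio of counts does not depend on library size. The Idh3b to Idh3a ratio was 1.08, 0.920, 0.908 and 0.922 in DJ-1+/+ and 1.30, 1.18, 1.22, 1.16 and 1.05 in DJ-1-/- mice. DJ-1+/+ replicate 1 lay above DJ-1-/- replicate 5, and the remaining libraries were separated by genotype. The mean log2 ratio was higher by 0.30 in DJ-1-/- mice (exact two-sided permutation test, p = 0.0317, and 0.0794 after Benjamini-Hochberg adjustment over the 5 ratios examined). The Idh3g to Idh3b ratio was 1.07, 1.08, 0.922 and 0.97 in DJ-1+/+ and 0.945, 0.763, 0.795, 0.847 and 0.855 in DJ-1-/- mice. Its mean log2 value was lower by 0.27 in DJ-1-/- mice, with the same exact permutation p and adjusted p. These 2 ratios share the counts of Idh3b and are not independent of its cpm. With 1 library left out the difference in log2 ratio stayed between 0.27 and 0.36 for Idh3b to Idh3a and between −0.31 and −0.23 for Idh3g to Idh3b. Each had an exact permutation p above 0.05 in 7 of these 9 comparisons, with values up to 0.0714. The Idh3g to Idh3a ratio was 0.969 ± 0.136 (SD) in the 4 DJ-1+/+ mice and 0.996 ± 0.136 (SD) in the 5 DJ-1-/- mice (exact permutation test, p = 0.81).

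**Figure D2:**
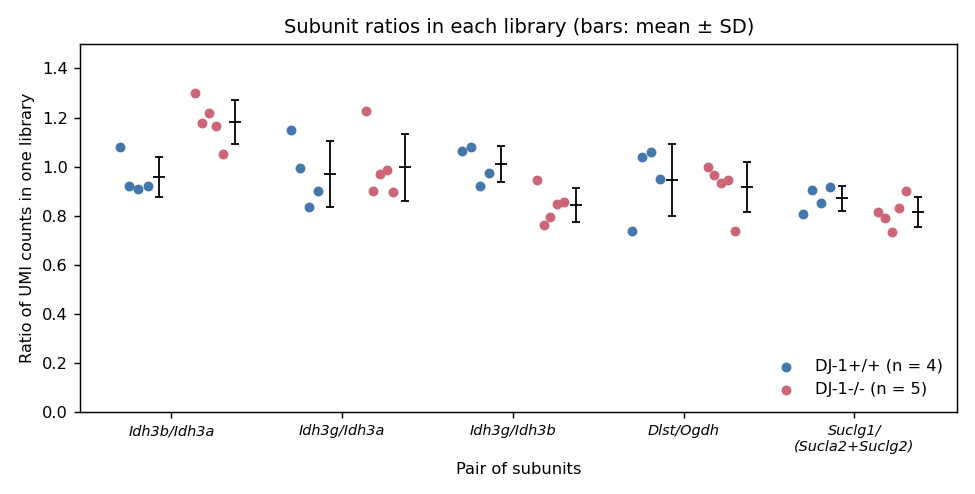
Ratio of the UMI counts of subunits of 1 enzyme complex (vertical axis, from 0) for 5 pairs of subunits (horizontal axis). Each point is 1 library, blue for DJ-1+/+ and red for DJ-1-/- mice, with bars for the mean ± SD; the mean Idh3b to Idh3a ratio was 0.957 in DJ-1+/+ and 1.18 in DJ-1-/- mice, with overlap of 1 DJ-1+/+ library.

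Cs, the entry enzyme of the cycle, lies at chr10:128337734-128362479 on the plus strand. It was at 148, 148, 134 and 152 cpm in DJ-1+/+ and at 138, 137, 125, 152 and 138 cpm in DJ-1-/- mice. DJ-1-/- replicate 4 lay just below the level of the highest DJ-1+/+ library, and the lowest library was DJ-1-/- replicate 3. Cs had a log2 fold change of −0.08 (standard error 0.08, unadjusted p = 0.353 in edgeR's test).

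Ogdh, the decarboxylase of the 2-oxoglutarate dehydrogenase complex, lies at chr11:6291633-6356642 on the plus strand. It was at 158, 142, 142 and 130 cpm in DJ-1+/+ and at 139, 127, 126, 135 and 148 cpm in DJ-1-/- mice, and the highest library was DJ-1+/+ replicate 1. The log2 fold change of Ogdh was −0.08 (standard error 0.08). Dlst, the lipoic acid carrying succinyltransferase of the same complex, lies at chr12:85110833-85134845 on the plus strand. It was at 116, 148, 150 and 123 cpm in DJ-1+/+ and at 139, 123, 118, 128 and 109 cpm in DJ-1-/- mice. DJ-1+/+ replicates 2 and 3 were the highest libraries, and DJ-1+/+ replicates 1 and 4 lay among the DJ-1-/- mice. The log2 fold change of Dlst, −0.12 with a standard error of 0.09, was the most negative of the 9 (unadjusted p = 0.207 in edgeR's test). Its unadjusted p in edgeR's test fell to 0.0227 without DJ-1+/+ replicates 1 and 4, with a log2 fold change of −0.27, and to 0.0281 with Xist (log2 cpm) as covariate, with a log2 fold change of −0.21. In either fit the adjusted p of Dlst in edgeR's test was at least 0.999. The Dlst to Ogdh ratio was 0.946 ± 0.147 (SD) in the 4 DJ-1+/+ mice and 0.916 ± 0.103 (SD) in the 5 DJ-1-/- mice (exact permutation test, p = 0.651).

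Suclg1, the common alpha subunit of both succinyl-CoA ligases, lies at chr6:73248382-73276911 on the plus strand. It was at 145, 140, 168 and 150 cpm in DJ-1+/+ and at 151, 148, 144, 170 and 161 cpm in DJ-1-/- mice, with overlap throughout. For Suclg1 the log2 fold change was 0.04 (standard error 0.08). Its ratio to the summed counts of the beta subunits Sucla2 and Suclg2 was 0.870 ± 0.0503 (SD) in the 4 DJ-1+/+ mice and 0.814 ± 0.0613 (SD) in the 5 DJ-1-/- mice (exact permutation test, p = 0.175).

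Fh1, which encodes the fumarase that hydrates fumarate to malate, lies at chr1:175600374-175625635 on the minus strand. It was at 131, 117, 131 and 117 cpm in DJ-1+/+ and at 138, 119, 136, 111 and 122 cpm in DJ-1-/- mice, so that the DJ-1+/+ range lay inside the DJ-1-/- range. Mdh2, which closes the cycle by oxidising malate, lies at chr5:135778480-135790398 on the plus strand. It was at 211, 198, 212 and 166 cpm in DJ-1+/+ and at 210, 205, 188, 211 and 172 cpm in DJ-1-/- mice, with 1 low library in each genotype, DJ-1+/+ replicate 4 and DJ-1-/- replicate 5. The log2 fold changes of Fh1 and Mdh2 were 0.01 and 0.00, each with a standard error of 0.09. Leaving out single libraries moved the sign of either, and that of Suclg1, with unadjusted p-values in edgeR's test no smaller than 0.308.

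For the 8 enzymes other than Idh3b, the 95% intervals of the difference in edgeR's fit all held a fold of 1. The lowest bound was 0.80-fold, for Dlst, and the highest 1.16-fold, for Suclg1. These are bounds on folds in UMI counts, and whether the UMI length narrows such folds was not tested.

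**Figure D3:**
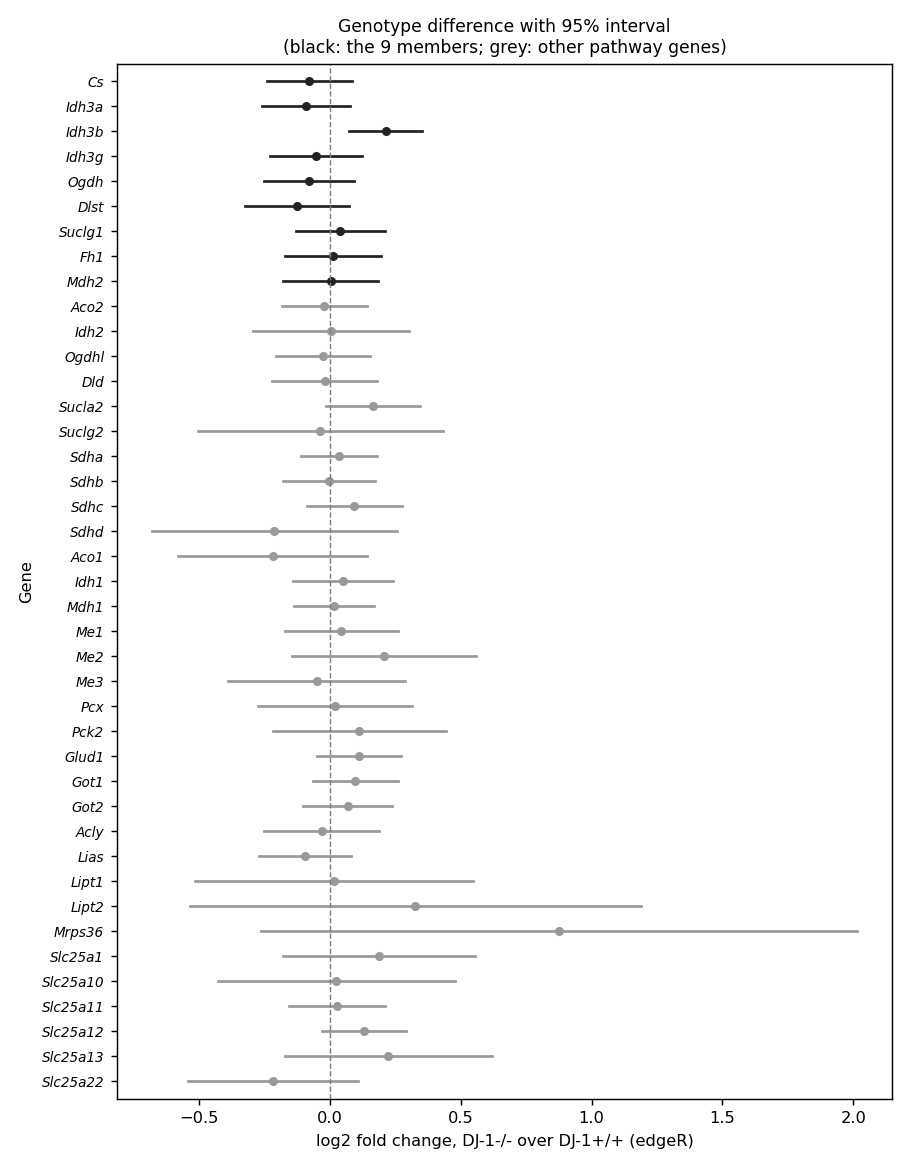
Log2 fold change of DJ-1-/- over DJ-1+/+ mice (horizontal axis) with its 95% interval from edgeR's quasi-likelihood fit over all genes, for 41 genes (vertical axis). Black points are the 9 cycle enzymes and grey points the 32 other pathway genes; the interval of Idh3b, 0.07 to 0.35, is the only 1 of the 41 that does not hold 0.

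By level, Mdh2 was the highest of the 9 enzymes, at 197 ± 17.9 cpm (SD, n = 9), and Fh1 the lowest, at 125 ± 9.63 cpm (SD, n = 9). In mean cpm over all 9 libraries the order was Mdh2, Idh3b, Suclg1, Idh3a, Idh3g, Cs, Ogdh, Dlst and Fh1. Mdh2 exceeded Idh3b in 9 of 9 libraries, although the ranges of the genes over the libraries met. From Idh3b downwards every neighbour in this order overlapped the next, and Idh3g and Cs, at 142 cpm and 141 cpm, differed by less than the SD of either. The 3 subunits of isocitrate dehydrogenase lay at 156, 145 and 142 cpm for Idh3b, Idh3a and Idh3g. In mean cpm Fh1 stood above 87.5% of the genes tested and Mdh2 above 97.6%.

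Within a genotype, the measured spread of 7 of the 9 enzymes lay below the average that counting alone gives. No range around that average was computed, so values somewhat below and above it are not told apart. The squared deviation from the genotype's mean level, divided by the count that level gives and by the degrees of freedom, is 1 on average under counting error alone. Its median was 0.77 over the 9 enzymes, 0.95 over genes tested in the same range of mean cpm and 1.12 over all genes tested. It was 0.15 for Idh3b, the smallest of the 9, followed by 0.54 for Cs, and it exceeded 1 for Dlst (1.39) and Mdh2 (1.74). The small standard error of Idh3b, 0.07 in edgeR's fit and 0.10 by DESeq2, thus goes with a spread between mice below average counting error. Whether edgeR's standard error is too small was not tested.

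The start regions of 8 of the 9 enzymes, all but Idh3a, matched a RefSeq promoter window of 300 bases (GRCm38.p6), from 250 before to 50 after the start site. Windows were searched on either strand for 3 motifs of factors known to act on nuclear genes of mitochondrial proteins. CCGGAAG, the core bound by ETS factors such as GABP, was found in 3 of the 8, Idh3b, Idh3g and Dlst, and in 8.86% of all 32851 windows. The core bound by NRF1 and AAGGTCA, the site bound by oestrogen-related receptors, were found in none of the 8, and in 4.6% and 4.72% of all windows. No match overlapped another. The stretches around the ETS core are shown since 2 of them belong to isocitrate dehydrogenase, of which 1 subunit, Idh3b, did not overlap between the genotypes. They are written 5′ to 3′ on the gene's strand, with the match (on the opposite strand for Idh3b and Dlst) in capitals, at chr2:130284440-130284466, chrX:73786985-73787011 and chr12:85110824-85110850.
Idh3b: accgcgctcgCTTCCGGcgtcacttcc
Idh3g: gctctaggcaCCGGAAGggggcgtaag
Dlst: gccggtctcaCTTCCGGttgctgccgg
Of these 3 genes, Idh3b did not overlap between the genotypes and Idh3g and Dlst did.

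Another 32 genes of the pathway were followed in 4 lists, and 32 of 32 passed the filter on low counts. None passed an unadjusted p of 0.05 in edgeR's test or by DESeq2, and none lacked overlap between the genotypes. The shares of all genes tested, 2.83%, 1.3% and 1.25%, would each come to less than 1 gene in a list of this size. Their median log2 fold change was 0.03, of which 21 were positive and 11 negative. The 10 other enzyme genes of the cycle were split 4 higher and 6 lower, with a median of −0.01. Sucla2, the beta subunit of the ATP-forming succinyl-CoA ligase, had the highest log2 fold change of these, 0.16 with a standard error of 0.08. It was at 146 ± 14.4 cpm (SD) in the 4 DJ-1+/+ mice and 164 ± 13.6 cpm (SD) in the 5 DJ-1-/- mice (unadjusted p = 0.0683 in edgeR's test). Sdhd, a membrane anchor of succinate dehydrogenase, had the lowest, −0.21 with a standard error of 0.22, and ranged from 43 to 101 counts. Its lowest libraries were DJ-1+/+ replicate 2, with 44 counts, and DJ-1-/- replicate 4, with 43, so the spread of Sdhd lay within the genotypes. Without DJ-1+/+ replicate 2, Sdhd and the glutamate carrier Slc25a22 passed an unadjusted p of 0.05 in edgeR's test, where 4.1% of all genes tested in that fit did.

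Among the 12 isoenzymes and enzymes of entry or exit reactions, 9 were higher and 3 lower, with a median log2 fold change of 0.05. The extremes were Me2, a mitochondrial malic enzyme, at 0.21 (standard error 0.17), and Aco1, the cytosolic aconitase and iron regulatory protein, at −0.22 (standard error 0.17). Of the 4 genes of lipoylation and of the adaptor of the 2-oxoglutarate dehydrogenase complex, 3 were higher and 1 lower, with a median of 0.17. Mrps36, the adaptor, had 2, 7, 6 and 3 counts in DJ-1+/+ and 10, 14, 9, 1 and 15 counts in DJ-1-/- mice, and its log2 fold change of 0.88 had a standard error of 0.54. Lias, the lipoic acid synthase, had a log2 fold change of −0.09 (standard error 0.08). Of the 6 carriers of cycle intermediates and their partners, 5 were higher and 1 lower, with a median of 0.08. The extremes were Slc25a13, an aspartate/glutamate carrier, at 0.22 (standard error 0.19), and Slc25a22 at −0.22 (standard error 0.15).

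Markers of the cell types that the dissection could hold were summed in each library. Those of neurons (7 genes), astrocytes (6), oligodendrocytes (6), microglia (5) and endothelium (4) overlapped between the genotypes and no gene among them passed an unadjusted p of 0.05 in edgeR's test. The 7 neuron markers summed to between 1951 and 2229 cpm in DJ-1+/+ and to between 1950 and 2135 cpm in DJ-1-/- mice. Of 8 dopaminergic neuron markers, 3 (Th, Slc6a3 and Pitx3) passed an unadjusted p of 0.05 in edgeR's test and were higher in DJ-1-/- mice, and their sum was 456 to 898 cpm in DJ-1+/+ and 707 to 947 cpm in DJ-1-/- mice. Pitx3, a transcription factor of these neurons, was at 0 counts in 2 libraries. All 5 choroid plexus markers (Ttr, Folr1, Kl, Clic6 and Kcnj13) and all 4 cerebellar markers (Gabra6, Pcp2, Cbln3 and Car8) passed an unadjusted p of 0.05 in edgeR's test and were lower in DJ-1-/- mice, as was 1 of 4 blood markers, Hba-a2, a haemoglobin gene whose reads may not be separable from those of Hba-a1. Over all genes tested, 1.57% passed that threshold as higher and 1.26% as lower in DJ-1-/- mice. Gabra6 was at 0 counts in 5 libraries, Pcp2 in 3, Folr1 in 2 and Kl in 1. The choroid plexus sum was 73.9 to 580 cpm in DJ-1+/+ and 41.3 to 164 cpm in DJ-1-/- mice. The cerebellar sum was 41.9 to 537 cpm in DJ-1+/+ and 45.0 to 57.8 cpm in DJ-1-/- mice. Only DJ-1+/+ replicate 1 was at 537 cpm, and the remaining DJ-1+/+ mice were at 41.9 to 72.7 cpm. The part of these differences in the values of Idh3b and Dlst was not tested beyond the fits without DJ-1+/+ replicates 1 and 4 given above. In bulk tissue, fewer cells of a type and less RNA per cell cannot be told apart.

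**Figure D4:**
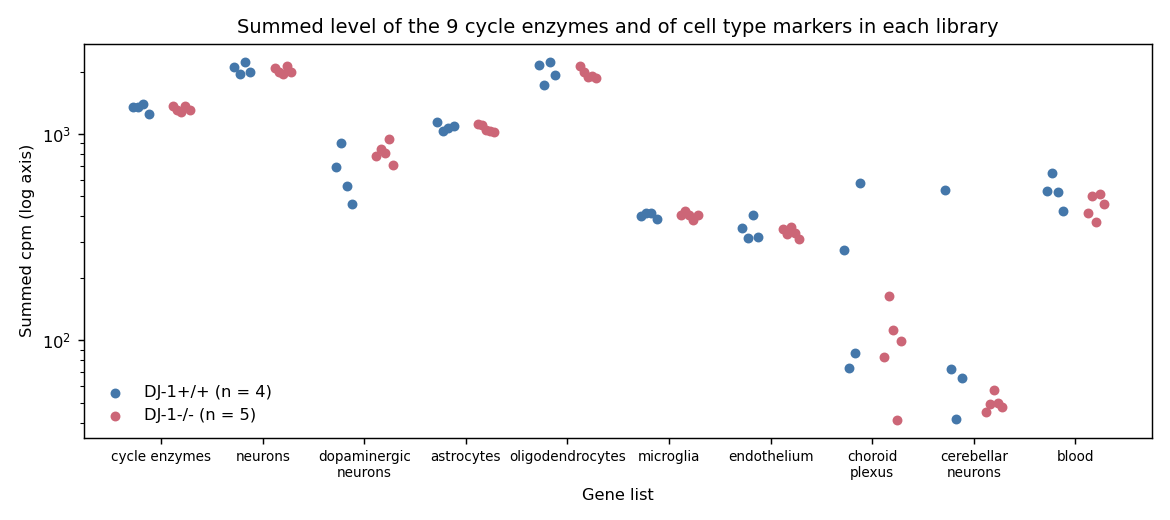
Summed cpm (vertical axis, log scale) of the 9 cycle enzymes and of 9 lists of cell type markers (horizontal axis), with 1 point for each library, blue for DJ-1+/+ and red for DJ-1-/- mice. The cycle enzymes lie between 1249 and 1387 cpm in all 9 libraries, whereas choroid plexus markers reach 580 cpm and cerebellar markers 537 cpm in 1 DJ-1+/+ library each.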

How the data were processed

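The authors deposited, for each of the 9 mice, the UMI count of each Ensembl gene as whole numbers without normalization, and genes without a count are not listed. The submitters' processing notes name fastp 0.20.0, STAR 2.7.3a, featureCounts 2.0.0 of Subread, UMI-tools 1.0.0 and the build GRCm38; the strand setting and annotation release are not given in the sources used here. Libraries were made from 100 ng of total RNA with the QuantSeq 3′ kit (FWD).

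Counts were joined by identifier, genes not listed for a library were set to 0, and symbols and positions were taken from GENCODE M21 (GRCm38). The 18127 genes whose counts summed to 10 or more were tested with edgeR 4.0.16 (glmQLFit with defaults, glmQLFTest, TMM normalization, genotype as the only term) in R 4.3.3, with Benjamini-Hochberg adjustment over all of them. Standard errors are the absolute log2 fold change over the root of its F. Values of single genes and ratios were compared with exact permutation tests in scipy 1.17.1. Alternatives were RLE size factors, library totals, DESeq2 1.42.0, other filters, thinned counts, Xist as a covariate, a replicate block and libraries left out. Depth limits precision through counting error, which at the enzymes' counts is 7.32% to 9.2% of the level.

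Libraries of one genotype were compared pairwise by chi-square over genes summing to 20 counts or more. Chi-square divided by its degrees of freedom was 1.07 to 2.27 in the 16 pairs, and none was taken as a copy. The p-values set the genotype difference against the spread between libraries of 1 mouse each, which includes counting error. In edgeR's test that spread is also moderated over all genes. The enzymes and the lists were chosen with earlier results of these data known. Named by rule are the 9 enzymes, Park7, and in each other pathway list the genes with an unadjusted p under 0.05 or without overlap and the highest and lowest log2 fold change, with markers at 0 in a library or defining a cell type. Suclg2 is named as part of a ratio. Nop56, mt-Co1, Hba-a2 and the carriers called in single alternatives were named after their values were seen.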

Additional observations from a re-analysis of the deposited data

Results flagged for a closer look

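In 4 of 48 groups of values 1 library lay far from the rest of its genotype. Its gap to the nearest library was 0.73 to 0.94 of the genotype's range. At a nominal 1 in 20 groups 2.4 would be flagged, but groups that share counts are not independent, so 4 was not tested against 2.4. The Idh3b to Idh3a ratio was 1.08 in DJ-1+/+ replicate 1, while the remaining DJ-1+/+ mice had 0.908 to 0.922, and this is the DJ-1+/+ library that reached into the DJ-1-/- range. The Idh3g to Idh3a ratio was 1.23 in DJ-1-/- replicate 1, while the rest of the DJ-1-/- mice had 0.898 to 0.986. The Dlst to Ogdh ratio was 0.737 in DJ-1-/- replicate 5, and 0.934 to 1 in the others, and DJ-1+/+ replicate 1 was also at 0.737. The summed cerebellar markers were 537 cpm in DJ-1+/+ replicate 1, where the remaining DJ-1+/+ mice had 41.9 to 72.7 cpm.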

How the results depend on the processing

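Idh3b kept a positive log2 fold change in all 18 alternative fits over all genes, between 0.18 and 0.23, and an unadjusted p under 0.05 in 17 of them. The exception left out DJ-1+/+ replicates 1 and 4 together (0.19, unadjusted p = 0.0665 in edgeR's test). The count of enzymes with an unadjusted p under 0.05 was 1 in 17 alternatives and 2, with Dlst, when Xist was a covariate. The share of all genes tested was 2.46% with that covariate and between 1.3% and 4.1% over the alternatives. The 1 was Idh3b in each of the 17 but that without DJ-1+/+ replicates 1 and 4, where it was Dlst. Mdh2 changed sign to −0.00704 with RLE size factors, −0.00718 with DESeq2, −0.00286 with at least 10 counts in 4 libraries, −0.0421 with the Xist covariate and −0.0528 without DJ-1+/+ replicates 1 and 4, while the fit to all libraries gave 0.00377. Leaving out 1 library at a time gave −0.0716 to 0.0437 for Mdh2, −0.0275 to 0.0399 for Fh1 and −0.00787 to 0.0923 for Suclg1 as log2 fold changes. In cpm the differences ran from −9.94 to 6.71 for Mdh2 and from −2.18 to 4.72 for Fh1. The log2 ratios ran from −0.0385 to 0.12 for Idh3g to Idh3a and from −0.15 to 0.0378 for Dlst to Ogdh.
Of the 32 other pathway genes, 1 had an unadjusted p under 0.05 on thinned counts (Sucla2) and 1 with the replicate block (Slc25a1), and 0 to 2 with 1 library left out. Those were Slc25a12 without DJ-1+/+ replicate 1, Sdhd and Slc25a22 without replicate 2, Sucla2 without replicate 3 and Mrps36 without DJ-1-/- replicate 4. The shares of all genes tested in these 4 fits were 2.33%, 4.1%, 3.41% and 3.07%. On thinned counts the share was 2.84%, and with the replicate block 3.15%. Over all genes, 513 had an unadjusted p under 0.05. The count was 235 with DESeq2, 802 without a filter, and 338 to 732 with 1 library left out, the 338 without DJ-1-/- replicate 2. Those with an adjusted p under 0.05 numbered 1, against 36 without a filter, 8 with the replicate block and 1 to 2 with 1 library left out, the 2 without DJ-1+/+ replicate 2 or 3. The causes were not tested.
The labels do not say that replicate numbers pair the mice. Deviations of same-numbered libraries correlated at 0.33, −0.09, −0.26 and −0.01 for replicates 1 to 4 over 7568 genes. What chance gives was not computed, so whether replicate 1 shares a factor is open. With the replicate block, where DJ-1-/- replicate 5 has no partner, 1 enzyme was called, with 0.22 for Idh3b (unadjusted p = 0.0166 in edgeR's test). The exact tests cannot reach p under 0.05 over the 4 pairs or without DJ-1+/+ replicates 1 and 4, and give values only.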

Other observations

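In the 6 libraries with Xist, examined after the data were seen, Idh3a was lower in DJ-1-/- mice. It was at 156 and 164 cpm in DJ-1+/+ and at 127 to 145 cpm in DJ-1-/- mice. In the 3 libraries without Xist, Idh3a was at 135 and 146 cpm in DJ-1+/+ and at 153 cpm in the DJ-1-/- mouse, in the opposite order. The DJ-1+/+ mice of this set are replicates 1 and 4, which were also highest in choroid plexus markers. Xist and dissection cannot be told apart among them, and only 1 DJ-1-/- mouse is in the set. With Xist, Ogdh was at 142 cpm in each DJ-1+/+ mouse and at 126 to 139 cpm in DJ-1-/- mice. For Ogdh, counting error alone is 8.74% of the level. Dlst with Xist was at 148 and 150 cpm in DJ-1+/+ and at 118 to 139 cpm in DJ-1-/- mice. Without Xist, Ogdh was at 130 and 158 cpm in DJ-1+/+ and at 148 cpm in the DJ-1-/- mouse, which lay between them, and Dlst at 116 and 123 cpm against 109 cpm, again lower in the DJ-1-/- mouse. With 2 DJ-1+/+ and 4 DJ-1-/- libraries, lack of overlap arises by chance more often than over all libraries, where Idh3b showed it. The share of all genes tested that lacked overlap in the libraries with Xist was not computed. No test was run within either set of libraries, and the difference between the sets was not tested.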
